A study of Mus musculus with 6 samples.

Results

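The genes described here are the Fc receptors of mouse leukocytes, the signalling chains they use and the kinase that reads those chains. They were chosen by name: Fcgr1, Fcgr2b, Fcgr3, Fcgr4, Fcer1g, Fcgrt, Fcer2a, Tyrobp and Syk. Of these 9 genes, 8 were measured, among 19938 genes in all; Fcgrt, the neonatal Fc receptor, was not analysed here. Each measured gene had 1 probe set that carries its symbol and no other. The cells were mouse bone marrow cells transduced with MSCV-MN1-IRES/YFP, a retroviral vector carrying MN1, or with the same kind of vector without MN1 (MSCV-IRES-GFP in the sample labels). MN1 is a transcriptional coregulator that is often highly expressed in myeloid leukaemia. All cells of both groups were therefore transduced, sorted for the fluorescent reporter (GFP in the sample labels, YFP in the series description) and lysed 72 hours after transduction. Each group held 3 arrays from 3 independent experiments. The sources used here do not give the strain, age or number of the donor mice, or the species of the MN1 cDNA.

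Fc receptors bind the constant part of antibodies. In the mouse, Fcgr1 (CD64), Fcgr3 (CD16) and Fcgr4 (CD16-2) encode receptors for IgG that activate the cell, and all of them rely on the Fc receptor gamma chain, encoded by Fcer1g, whose cytoplasmic tail carries an immunoreceptor tyrosine-based activation motif (ITAM). Once phosphorylated by Src family kinases, that motif recruits the tyrosine kinase Syk, which starts phagocytosis, degranulation and cytokine release. Fcgr2b (CD32) encodes the inhibitory IgG receptor, which carries an inhibitory motif of its own and recruits the lipid phosphatase SHIP-1. Tyrobp encodes DAP12, a second ITAM chain of myeloid and natural killer cells, which serves receptors other than those for IgG. Fcer2a (CD23) encodes the low-affinity IgE receptor, a C-type lectin found mainly on mature B cells.

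RNA was hybridised to Affymetrix arrays with probes along the whole transcript, and all values below are the authors' log2 expression values per probe set, made with RMA. A difference of 1 is a factor of 2 on this scale, which compresses the differences of dim genes. Levels of different genes are not compared, because a probe set's brightness depends on its probes. Mn1 itself was higher in every MN1 array, at 6.47, 6.62 and 6.08 against 5.34, 5.41 and 4.80 with the empty vector. Over all genes, limma with Benjamini-Hochberg adjustment called 0 of 19938 (a background of 0%), with 0.579 as the lowest adjusted p. The unadjusted p was under 0.05 for 832 genes higher (4.17%) and 843 lower (4.23%), or 977 and 400 after each array was centred on the median of all its probe sets. No statement below is therefore a call over all genes. The labels do not say whether the arrays of a group came from different mice, so p-values measure the spread between these arrays.

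The promoters of the 4 IgG receptor genes are shown because these genes had the widest range of differences among the members. The sequences are from RefSeq (GRCm38.p6), 300 bases each, from 250 bases before the annotated start onwards, written 5′ to 3′ on the gene's strand. They lie at chr3:96293920-96294219 (Fcgr1, minus strand), chr1:171059354-171059653 (Fcgr3, minus strand, the first of 2 listed starts), chr1:171018676-171018975 (Fcgr4, plus strand) and chr1:170976022-170976321 (Fcgr2b, minus strand). Capitals mark GAGGAA, the core of sites for the myeloid factor PU.1, on either strand, and TTCNNNGAA, the palindrome of interferon gamma activated sites.
Fcgr1: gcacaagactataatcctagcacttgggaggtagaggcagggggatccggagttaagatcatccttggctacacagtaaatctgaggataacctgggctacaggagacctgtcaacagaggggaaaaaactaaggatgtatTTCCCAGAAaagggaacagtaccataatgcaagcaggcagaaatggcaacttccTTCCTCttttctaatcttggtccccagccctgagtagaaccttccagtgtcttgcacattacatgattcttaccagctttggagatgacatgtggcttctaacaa
Fcgr3: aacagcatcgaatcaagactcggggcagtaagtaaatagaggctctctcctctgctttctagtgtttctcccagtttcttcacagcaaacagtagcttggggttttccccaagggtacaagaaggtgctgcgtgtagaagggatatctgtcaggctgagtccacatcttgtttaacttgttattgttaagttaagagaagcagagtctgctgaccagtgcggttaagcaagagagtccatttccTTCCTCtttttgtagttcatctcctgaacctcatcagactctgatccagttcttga
Fcgr4: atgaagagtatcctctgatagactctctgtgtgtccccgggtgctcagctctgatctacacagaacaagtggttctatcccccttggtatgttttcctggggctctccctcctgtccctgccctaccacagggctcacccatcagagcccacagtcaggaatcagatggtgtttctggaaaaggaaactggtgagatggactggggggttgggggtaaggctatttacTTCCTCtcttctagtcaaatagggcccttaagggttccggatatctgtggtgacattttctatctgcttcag
Fcgr2b: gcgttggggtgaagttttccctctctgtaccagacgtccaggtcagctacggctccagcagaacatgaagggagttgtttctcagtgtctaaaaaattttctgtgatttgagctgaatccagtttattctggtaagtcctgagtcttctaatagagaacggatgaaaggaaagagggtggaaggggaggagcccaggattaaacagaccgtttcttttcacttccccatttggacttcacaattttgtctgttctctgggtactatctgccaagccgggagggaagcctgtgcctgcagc
All 3 activating receptor windows held GAGGAA once, on the strand opposite to transcription, so that it reads TTCCTC above. The match began 55 bases before the start in Fcgr1, 22 bases before it in Fcgr4 and 6 bases before it in Fcgr3. The Fcgr2b window did not hold these letters. In the Fcgr1 window the interferon gamma palindrome was also present, as TTCCCAGAA, beginning 109 bases before the start. The matches do not overlap each other. Among all 32851 promoter windows of this length, 28.3% held GAGGAA and 8.30% held TTCNNNGAA on either strand. Windows were listed for 7 of the 8 measured members, 11 windows in all; GAGGAA was present in 4 of these genes, the other being Syk, and TTCNNNGAA in Fcgr1 alone. The entry for Tyrobp is missing. Such matches are letters in a window and no measurement of binding.

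Among the activating receptors, Fcgr1 differed most. Fcgr1, the high-affinity IgG receptor of monocytes and macrophages, measured 8.36, 8.88 and 9.36 on the 3 empty vector arrays and 10.69, 9.29 and 10.76 on the 3 MN1 arrays. MN1 replicates 1 and 3 lay well above every empty vector array, while MN1 replicate 2 lay just below empty vector replicate 3, so the groups overlapped by that pair. The means were 8.87 ± 0.50 and 10.24 ± 0.83 (SD, n = 3), a log2 difference of 1.38 ± 0.45 (SE), or 2.59-fold. Fcgr1 was the only member at an unadjusted p under 0.05, where 8.4% of all genes lie in either direction, and its adjusted p was 0.584 (limma). Only 0.426% of all genes had a larger difference in either direction. Without MN1 replicate 2 the difference was 1.85 and the groups did not overlap. The unadjusted p of Fcgr1 was 0.0203 with all arrays, and left-out arrays moved it from 0.00114 without MN1 replicate 2 to 0.0697 without empty vector replicate 1.

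Fcgr4, the activating receptor of mouse monocytes and neutrophils for IgG2a and IgG2b, showed the same pattern over the arrays. Its empty vector values were 7.14, 7.48 and 8.58 and its MN1 values 9.33, 7.75 and 9.59. Again MN1 replicate 2 lay inside the empty vector range and the other MN1 arrays lay above it. The log2 difference was 1.16 ± 0.57 (SE), or 2.23-fold, with an adjusted p of 0.594 (limma). With Fcgr1 it was one of 2 members whose mean was at least 2-fold higher, a size reached by 0.993% of all genes. Leaving out MN1 replicate 2 gave 1.73.

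Fcgr3, the low-affinity activating receptor shared by macrophages, neutrophils, natural killer cells and mast cells, had a smaller difference. It measured 9.30, 9.26 and 8.79 with the empty vector and 10.27, 9.12 and 9.49 with MN1. Here MN1 replicate 1 stood highest, and MN1 replicate 2 was below the first pair of empty vector arrays. The log2 difference was 0.51 ± 0.31 (SE), with an adjusted p of 0.623 (limma). Without MN1 replicate 1 it was 0.19.

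Fcgr2b, the inhibitory receptor, measured 11.18, 10.96 and 10.68 with the empty vector and 11.93, 10.63 and 11.18 with MN1. The MN1 arrays spanned the whole empty vector range, with MN1 replicate 1 above it and MN1 replicate 2 below it. The log2 difference was 0.30 ± 0.33 (SE), its 95% interval ran from -0.49 to 1.10, and its adjusted p was 0.757 (limma). The sign turned without MN1 replicate 1, where the difference was -0.036. Fcgr2b and Fcgr3 have closely similar extracellular parts, so a probe set of one may read some RNA of the other.

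**Figure D1:**
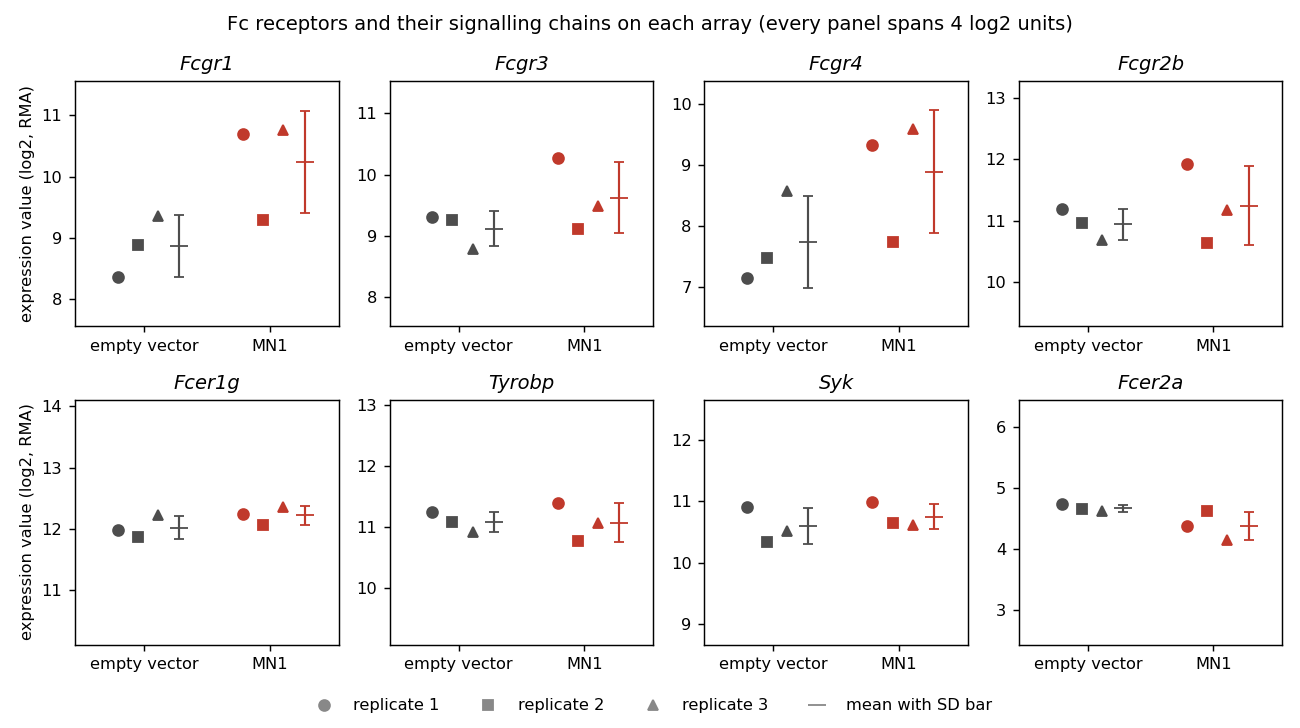
Log2 expression value (vertical axis) of the 8 measured members on each empty vector array (grey) and MN1 array (red), with symbols for the replicate number and the mean with its SD beside them; every panel spans the same number of log2 units. Fcgr1 and Fcgr4 show MN1 replicates 1 and 3 above all empty vector arrays and MN1 replicate 2 within or near them, while Tyrobp, Syk and Fcer1g vary little.

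The chains that the receptors signal through had smaller differences than Fcgr1 and Fcgr4. Fcer1g, the chain the activating IgG receptors need at the cell surface, measured 11.97, 11.86 and 12.23 with the empty vector and 12.24, 12.06 and 12.36 with MN1. The groups overlapped through empty vector replicate 3, which lay above MN1 replicate 2. The log2 difference was 0.20 ± 0.14 (SE), with a 95% interval of -0.13 to 0.53 and an adjusted p of 0.651 (limma). It ranged from 0.12 to 0.30 when single arrays were left out, lowest without empty vector replicate 2 and highest without empty vector replicate 3.

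Tyrobp measured 11.25, 11.08 and 10.92 with the empty vector and 11.40, 10.77 and 11.06 with MN1. The group means, 11.08 ± 0.16 and 11.08 ± 0.32 (SD, n = 3), were almost equal, and the log2 difference was -0.01 ± 0.18 (SE), with an adjusted p of 0.995 (limma). The 95% interval of that difference, -0.44 to 0.43, does not reach the 1.38 measured for Fcgr1. The interval of Fcgr1, 0.29 to 2.46, overlaps it, and the 2 genes were not tested against each other. The sign of the Tyrobp difference depended on single arrays, from -0.17 without MN1 replicate 1 to 0.15 without MN1 replicate 2. The difference was 0.027 after centring on all probe sets.

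Syk, the kinase that docks on phosphorylated ITAMs, measured 10.92, 10.34 and 10.51 with the empty vector and 10.98, 10.65 and 10.62 with MN1. The groups overlapped because empty vector replicate 1 was almost as high as the highest MN1 array. The log2 difference was 0.16 ± 0.18 (SE), with an adjusted p of 0.767 (limma). Left-out arrays moved it between 0.04 without empty vector replicate 2 and 0.32 without empty vector replicate 1.

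Fcer2a was the only member with groups that did not overlap, and it was lower with MN1. It measured 4.73, 4.65 and 4.62 with the empty vector and 4.37, 4.62 and 4.15 with MN1. The gap is narrow: the highest MN1 value and the lowest empty vector value both round to 4.62. The log2 difference was -0.29 ± 0.14 (SE), with an adjusted p of 0.594 (limma), and after quantile normalization the groups overlapped. Every MN1 array lay below every empty vector array for 10.3% of all genes, so 1 of 8 members is near the background. These values are in the dim range of the arrays, where RMA compresses differences. The mean of 11 markers of B cells, the main source of CD23, was 5.64, 5.48 and 6.93 on the empty vector arrays and 6.29, 5.40 and 6.69 on the MN1 arrays, and its members went both ways. Igll1, Rag1 and Vpreb1, genes of early B cells, had a higher mean with MN1, by 0.75 ± 0.40, 0.68 ± 0.28 and 0.50 ± 0.31 (SE). Ms4a1 (CD20), Cd79a, Pax5 and Cd79b, which mature B cells also express, had a lower mean. They differed by -0.65 ± 1.17, -0.44 ± 0.92, -0.28 ± 0.63 and -0.23 ± 0.80. Cd22, also of mature B cells, had a higher mean (0.32 ± 0.43), as did Ebf1 (0.45 ± 0.72) and Vpreb3 (0.16 ± 0.38). Cr2 differed by -0.06 ± 0.09. These B cell genes were named after their values were seen, and the groups overlapped for all 11 of them. Their part in the Fcer2a difference was not tested. Empty vector replicate 3 had the highest B cell mean and the lowest Fcer2a value of its group. Without MN1 replicate 3 the Fcer2a difference was -0.17.

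**Figure D2:**
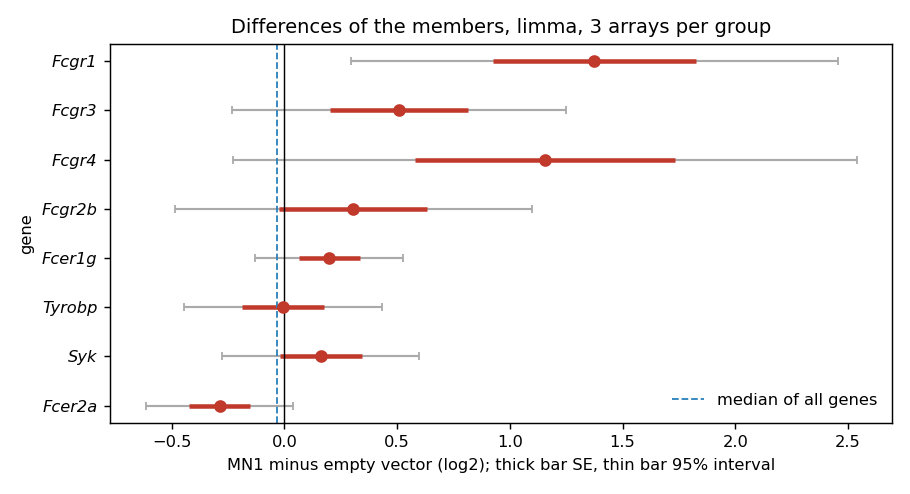
Log2 difference of MN1 minus empty vector (horizontal axis) for each member (vertical axis), with the SE as a thick bar and the 95% interval as a thin bar; the dashed line is the median of all genes. Only the interval of Fcgr1, 0.29 to 2.46, lies wholly on one side of 0, before adjustment over all genes.

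Counted together, 6 of the 8 members had a higher mean with MN1, as did 43.3% of all genes. With the dimmest 40% of genes left out, 57.2% of the rest did, and so did 6 of the 7 remaining members. After centring on all probe sets the share was 50.1%, with 7 of 8 members. The median difference of the members was 0.25, against -0.03 for all genes. In no member did every MN1 array lie above every empty vector array, which was the case for 5.71% of all genes. That count of 0 became 4 when MN1 replicate 2 was left out (Fcgr1, Fcgr3, Fcgr4 and Fcer1g) and 3 when empty vector replicate 3 was left out (Fcgr1, Fcgr4 and Fcer1g). Separation is easier with 5 arrays: with those arrays left out, 11% and 12.1% of all genes had every MN1 array above. MN1 replicate 2 was the lowest MN1 array for Fcgr1, Fcgr2b, Fcgr3, Fcgr4, Fcer1g and Tyrobp.

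The members formed pairs by their profile over the 6 arrays. As a measure of likeness, each gene was centred on its own mean and the root mean square distance between the profiles was taken. Fcgr2b and Fcgr3 were the closest of all pairs, at 0.13 log2 units. Fcgr1 and Fcgr4 lay 0.24 apart, and were the nearest member to each other, while Fcgr1 lay 0.70 from Fcgr3 and 0.75 from Fcgr2b. The pairs ran in opposite order on the empty vector arrays. Fcgr1 and Fcgr4 were lowest on empty vector replicate 1 and highest on replicate 3, and Fcgr2b and Fcgr3 the reverse. Tyrobp was closest to Syk, at 0.18. Genes that vary little lie near each other by this measure: Tyrobp itself lay 0.21 from a flat profile. Over all genes, the 3 profiles nearest to Fcer1g were those of 2900026A02Rik (0.03), Dusp11 (0.04) and Senp5 (0.04), and the 3 nearest to Tyrobp were Hivep1 (0.05), Slc10a1 (0.06) and Prr15 (0.07). With 6 arrays and 19938 genes, such nearness describes these arrays only.

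Activating and inhibitory receptors were set against each other within each array, which removes shifts common to both. A value here is the difference of 2 probe sets, so only its change between groups can be read. Fcgr1 minus Fcgr2b was -2.82, -2.08 and -1.31 with the empty vector and -1.24, -1.34 and -0.42 with MN1. The groups overlapped slightly, and the mean was 1.07 ± 0.52 (SE) higher with MN1, with an exact two-sided permutation p of 0.2. Fcgr4 minus Fcgr2b was -4.04, -3.48 and -2.10 against -2.60, -2.88 and -1.59, higher by 0.85 ± 0.70 (exact permutation p = 0.3). For both, empty vector replicate 3 lay among the MN1 arrays.

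Fcgr3 minus Fcgr2b varied least and separated the groups. It was -1.88, -1.70 and -1.89 with the empty vector and -1.66, -1.51 and -1.69 with MN1. Every MN1 array lay above every empty vector array by a narrow margin, and the mean was 0.20 ± 0.08 (SE) higher. Its exact permutation p was 0.1, the smallest that 3 arrays against 3 can give. After quantile normalization the groups overlapped, with a difference of 0.16 and an exact permutation p of 0.2. A probe set of Fcgr3 or Fcgr2b may read some RNA of the other, and the effect of that on this difference was not tested. Fcer1g minus Tyrobp, the balance of the ITAM chains, was 0.73, 0.78 and 1.31 against 0.84, 1.29 and 1.30, with overlapping groups, a difference of 0.20 ± 0.24 (SE) and an exact permutation p of 0.4. After adjustment over these 4 comparisons every p was 0.4.

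**Figure D3:**
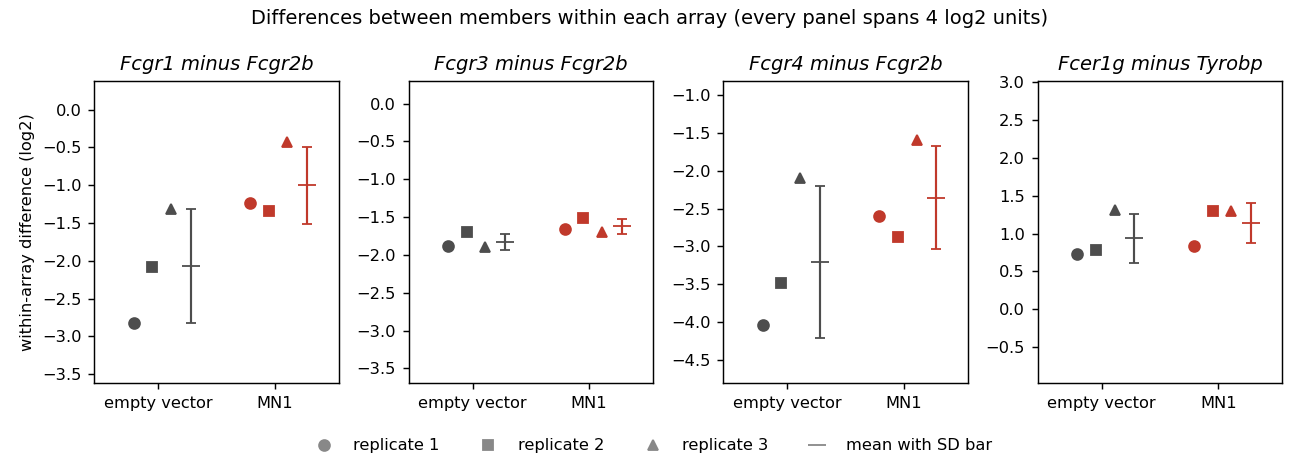
Within-array log2 differences (vertical axis) of Fcgr1, Fcgr3 and Fcgr4 minus Fcgr2b and of Fcer1g minus Tyrobp, on each empty vector array (grey) and MN1 array (red), with the mean and SD beside the points. Fcgr3 minus Fcgr2b is the only one in which all MN1 arrays lie above all empty vector arrays, with a difference of 0.20.

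The Fc receptor genes sit beside genes of other functions on mouse chromosome 1, where Fcrla, Fcgr2b, Fcgr4, Fcgr3 and Fcer1g lie in this order. Of the genes annotated in RefSeq from Fcrla to Fcer1g, 12 were measured, 8 of them no member. Among those 8, 4 had a higher mean with MN1 and 4 a lower one. Fcrla, a receptor-like protein of B cells that lies near Fcgr2b, differed by -0.08 ± 0.37 (SE), and Sdhc, a subunit of mitochondrial complex II, by 0.01 ± 0.12. None of these neighbours differed by more than 0.22, the size for Nr1i3, a nuclear receptor gene, which was lower (-0.22 ± 0.12). For Nr1i3 and Cfap126 every MN1 array lay below every empty vector array, as for 10.3% of all genes. Several neighbours are dim, such as Gm10522 (4.36, 4.22 and 4.49 with the empty vector) and Cfap126 (4.96, 4.93 and 5.01). RMA compresses differences in that range. The difference of Fcgr4, 1.16, was larger than that of each of these neighbours.

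Of 12 other Fc receptor genes measured, 4 had a higher and 8 a lower mean with MN1, a share near the 43.3% higher among all genes. Their median was -0.09, but leaving out empty vector replicate 3 gave 0.15 and leaving out MN1 replicate 2 gave 0.04. Limma called 0 of them, 0 were at an unadjusted p under 0.05, and for none did the groups separate. Fcer1a, the IgE-binding chain of the high-affinity IgE receptor, which also uses the gamma chain, differed by 0.00 ± 0.24 (SE), at 10.03, 10.34 and 10.86 against 10.37, 10.18 and 10.68. Ms4a2, the beta chain of that receptor, differed by -0.32 ± 0.43. The largest differences were in Fcrl1 (-0.65 ± 0.43), Fcmr, the IgM receptor (-0.54 ± 0.55), and Fcrl5 (-0.35 ± 0.64), all genes of B lymphocytes. These 3 genes were highest on empty vector replicate 3, the array with the highest B cell marker mean. Fcer1a and Ms4a2 were named after their values were seen.

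Receptors listed here as partners of the gamma chain were mixed: 2 of 7 measured had a higher mean and 5 a lower one (median -0.20). The C-type lectin genes Clec4d and Clec4n, which encode Dectin-3 and Dectin-2, differed by 0.77 ± 0.40 and 0.39 ± 0.17 (SE), and Pilrb1 by -0.69 ± 0.49, all with overlapping groups. Ncr1, which encodes the natural killer cell receptor NKp46, was lower in every MN1 array (-0.35 ± 0.11), as were 10.3% of all genes. It measured 4.37, 4.12 and 4.15 against 3.88, 3.74 and 3.96, in the dim range. Receptors listed as partners of DAP12, or as signalling partly through it, split in both directions. Single receptors of these lists, among them Pilrb1 and Cd300ld, may use the other chain, which would change both counts and medians. Of 11 measured, 7 had a higher mean and 4 a lower one (median 0.20). Cd300ld, an activating CD300 receptor, was higher in every MN1 array, at 9.79, 9.22 and 9.19 against 9.02, 7.41 and 7.94, a log2 difference of 1.27 ± 0.41 with an adjusted p of 0.584 (limma). Clec5a (MDL-1), a myeloid lectin, differed by -1.21 ± 0.50 and Trem3 by -1.11 ± 0.61, both with overlapping groups. Csf1r, the receptor for macrophage colony-stimulating factor, was higher in every MN1 array by 0.25 ± 0.09. It and Ncr1 were named after their values were seen. Every MN1 array lay above every empty vector array for 2 of these 11, Cd300ld and Csf1r, against 5.71% of all genes. The other ITAM and YINM adaptors, those of T and B cell receptors and DAP10, all had a lower mean (7 of 7, median -0.26). Among all genes, 43.3% had a higher mean, and 57.2% with the dimmest 40% left out. Cd79a differed by -0.44 ± 0.92, Cd3g by -0.43 ± 0.26 and Cd3e by -0.32 ± 0.10. Of these, Cd3e alone had groups that did not overlap. Cd3g, with means of 4.83 and 4.41, and Cd3d, with means of 4.87 and 4.63, are also in the dim range. Cd3d was named after its value was seen.

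Kinases and effectors next to Syk went both ways. Of 6 Src family kinases and Syk relatives measured, 4 had a higher and 2 a lower mean (median 0.07), led by Src (0.89 ± 0.68, SE), Fyn (0.44 ± 0.32) and Fgr (-0.33 ± 0.28), all with overlapping groups. Of 26 adaptors and effectors below Syk, 15 had a higher mean and 11 a lower one (median 0.05). The B cell adaptor gene Blnk differed by 1.08 ± 0.74 with overlapping groups. Vav3, a guanine nucleotide exchange factor, was higher in every MN1 array, at 8.77, 8.23 and 8.49 against 7.99, 7.78 and 7.82, a log2 difference of 0.63 ± 0.16 with an adjusted p of 0.584 (limma). Plcg1, a phospholipase C, was higher by 0.48 ± 0.18, also without overlap. Vav2, of the same family as Vav3, was higher by 0.21 ± 0.09, and Tec, a kinase related to Btk, was lower (-0.38 ± 0.13), both without overlap; these 2 were named after their values were seen. Vav3, Plcg1, Vav2 and Tec were the 4 of 26 genes at an unadjusted p under 0.05, where 8.4% of all genes lie. The groups separated upwards for 3 of the 26 genes and downwards for 3, against 5.71% and 10.3% of all genes.

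Inhibitors of ITAM signalling also went both ways: 10 of 18 had a higher and 8 a lower mean, with a median of 0.08. Dok1, an adaptor of inhibitory signals, and Sirpa, an inhibitory receptor for CD47, were higher in every MN1 array, by 0.31 ± 0.16 and 0.33 ± 0.15 (SE). This was the case for 2 of the 18, against 5.71% of all genes, and 0 of the 18 were at an unadjusted p under 0.05. Inpp5d, which encodes SHIP-1, the phosphatase that Fcgr2b recruits, differed by 0.13 ± 0.10; it, Dok1 and Sirpa were named after their values were seen. The inhibitory lectin gene Clec12a differed by -0.50 ± 0.39, Dok3 by -0.41 ± 0.20 and the phosphatase gene Ptpn11 by 0.36 ± 0.18. Transcription factors known to act on Fc receptor genes had 4 of 7 means higher and 3 lower; the median was 0.09, from -0.29 without empty vector replicate 3 to 0.31 without empty vector replicate 2, and their groups all overlapped. Mitf differed by 0.50 ± 0.26, Tfec by -0.41 ± 0.54 and Irf4 by -0.41 ± 0.62. Spi1, which encodes PU.1, differed by -0.22 ± 0.24, at 12.29, 11.85 and 11.38 with the empty vector and 11.75, 11.72 and 11.38 with MN1; it too was named after its value was seen. In none of these pathway lists did a gene pass adjustment over all genes (limma), and at an unadjusted p under 0.05 were 8 of their 94 genes, or 8.51%, against 8.4% of all genes. Leaving out single arrays turned the sign of the median in 5 of the 8 lists.

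**Figure D4:**
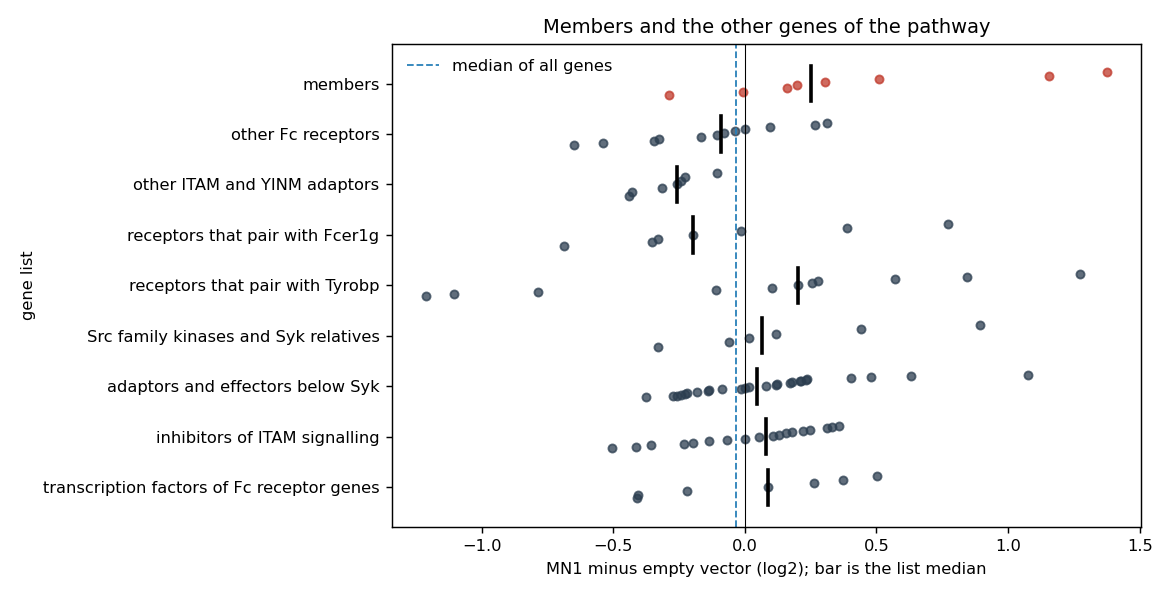
Log2 difference of MN1 minus empty vector (horizontal axis) for each gene (points) of the members and the 8 pathway lists (vertical axis), with each list's median as a black bar and the median of all genes as a dashed line. The members' median is 0.25, and Fcgr1 and Fcgr4 lie beyond most genes of the other lists.

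The sorted marrow held several cell types that carry Fc receptors, and their markers differed between the arrays. In bulk RNA, fewer cells of a type and less RNA per cell cannot be told apart. Of 13 monocyte and macrophage markers, 10 had a higher mean with MN1; their mean level ran from 8.87 to 9.48 on the empty vector arrays and from 9.64 to 10.09 on the MN1 arrays, without overlap. Of 14 neutrophil markers, 13 had a lower mean; their mean level ran from 8.28 to 11.74 and from 8.87 to 9.70. Mast cell, basophil and eosinophil markers had 10 of 11 means lower, with mean levels of 9.27 to 10.53 and 8.86 to 10.01. Natural killer and T cell markers had 9 of 11 lower, at 6.53 to 6.80 and 6.03 to 6.45, without overlap. Several of these genes are dim, such as Ncr1 (means of 4.21 and 3.86), Klrb1c (3.71 and 3.72) and Gzma (3.98 and 3.93). Dendritic cell markers had 5 of 11 higher, at 6.68 to 6.97 and 6.58 to 7.21, and B cell markers 6 of 11, at 5.48 to 6.93 and 5.40 to 6.69. Haematopoietic progenitor markers had 6 of 8 higher, at 8.65 to 9.04 and 9.32 to 9.97, also without overlap. Over all genes, 43.3% had a higher mean, and 57.2% without the dimmest 40%.

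Array by array, the monocyte and macrophage mean was highest on MN1 replicate 1 (10.09), followed by MN1 replicates 3 (9.87) and 2 (9.64). Fcgr2b, Fcgr3 and Tyrobp had the same order within the MN1 group. Fcgr1, Fcgr4 and Fcer1g were highest on MN1 replicate 3. The neutrophil mean of empty vector replicate 3, 8.28, stood apart from those of empty vector replicates 1 and 2, 10.68 and 11.74, and that array had the highest Fcgr1 and Fcgr4 values and the lowest Fcgr2b and Fcgr3 values of its group. The macrophage genes C1qa, C1qb and C1qc, which encode complement C1q, differed by 1.76 ± 0.64, 1.28 ± 0.51 and 1.46 ± 0.58 (SE). Their groups did not overlap, as was so upwards for 5.71% of all genes. They had the largest differences of the list. Cx3cr1, Cd14 and Ccr2, the monocyte and macrophage markers with a lower mean, differed by -0.38 ± 0.22, -0.36 ± 0.57 and -0.10 ± 0.61, with overlapping groups. Tyrobp and Fcer1g, chains of monocytes and macrophages but also of neutrophils and natural killer cells, differed by -0.01 and 0.20. The part of cell composition in the values of Fcgr1, Fcgr4 and the other members was not tested.

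**Figure D5:**
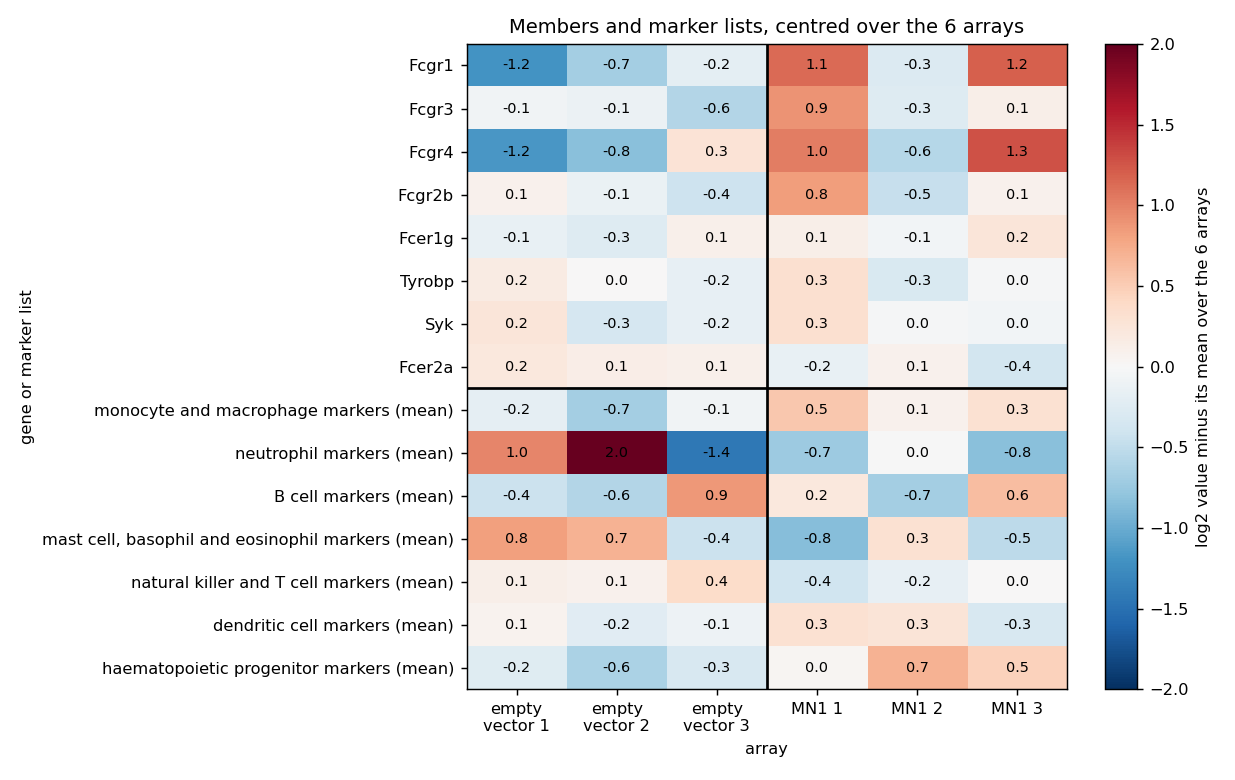
Log2 values of the 8 members (above the line) and the mean of each marker list (below it) on each array (columns), centred on their own mean over the 6 arrays; red is higher and blue lower. Fcgr1 and Fcgr4 are lowest on empty vector replicate 1 and highest on MN1 replicate 3, and the neutrophil list is lowest on empty vector replicate 3.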

How the data were processed

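RNA (200 ng per array) was labelled with biotin by a whole-transcript sense protocol, per the labels' protocols. The authors deposited 1 log2 value for each probe set and array. RMA is the tool named in the submitters' processing notes; its version, and whether all arrays were normalized jointly, are not stated there. That the scale is log2 was inferred from its range (2.29 to 14.80). All 6 value columns were used. Of 35557 probe sets, 21789 carry 1 gene symbol in the platform annotation, 1621 several and 12147 none; the set with the highest mean per gene was kept, which left 19938 genes. No dim genes were left out. Groups and replicate numbers are from the sample titles.

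The test was limma 3.58.1 in R 4.3.3 (lmFit, eBayes, two-sided), with 4 residual and 2.43 prior degrees of freedom, Benjamini-Hochberg adjustment over all genes, a threshold of 0.05 and no block. It was tested on simulated data. Within-array differences were tested by exact permutation. Genes named are the members, the 3 largest differences per pathway list, the 3 nearest profiles to Fcer1g and Tyrobp, and Mn1; others are marked or stand among markers and neighbours. Members and lists were chosen with earlier results of these data known. Alternatives are given in the closing section. Promoter sequences are RefSeq's.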

Additional observations from a re-analysis of the deposited data

How the results depend on the processing

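Under 15 alternatives (14 for Fcer2a, which the filter on dim genes removed), 0 members and 0 genes passed adjustment over all genes (limma), and Fcgr1, Fcgr3, Fcgr4, Fcer1g, Syk and Fcer2a kept their direction. Fcgr1 ranged from 1.12 to 1.85 and Fcgr4 from 0.81 to 1.73. When single arrays were left out, Fcgr2b ranged from -0.036 to 0.61 and Tyrobp from -0.17 to 0.15, the sign of Tyrobp turning without empty vector replicate 1 (0.08), MN1 replicate 2 (0.15) or MN1 replicate 3 (0.00). Centring on all probe sets, added after seeing the data, gave Tyrobp 0.027 and left 400 genes lower at an unadjusted p under 0.05. Without the dimmest 40% the genes at that p were 599 higher and 251 lower, where 832 and 843 had been near balance, and they were 1287 higher and 1270 lower over every probe set. Leaving out single arrays, they ran from 508 to 1044 higher and from 398 to 1037 lower, the members at that p from 0 to 4, and the members with every MN1 array above from 0 to 4. With the replicate number as a block, 2 members were at that p (Fcgr1 and Fcgr4), as were 9.93% of all genes, 1140 higher and 840 lower. An intensity trend and robust prior also gave 2 (Fcgr1 and Fcer2a), with 8.39% of all genes. Of the members, 4 were at that p without MN1 replicate 2 and 2 without empty vector replicate 3, where 9.72% and 9.8% of all genes were. Quantile normalization and the filter on dim genes left 0 members with every MN1 array below, and after quantile normalization the groups overlapped for Fcgr3 minus Fcgr2b (0.16, exact permutation p = 0.2). Leaving out single arrays turned the sign of 5 of the 8 pathway list medians: other Fc receptors (-0.22 to 0.15), Src family kinases and Syk relatives (-0.085 to 0.37), adaptors and effectors (-0.013 to 0.15), inhibitors (-0.012 to 0.15) and transcription factors (-0.29 to 0.31). The replicate numbers were not shown to pair the arrays: deviations of same-numbered arrays correlated at 0.13, 0.07 and 0.32 across genes, and empty vector replicate 1 correlated best with MN1 replicate 2 (0.44). The block changed no other call. The causes of these shifts were not tested, other than the changed number of genes or arrays. With 3 arrays per group, the number of arrays limits the precision, and exact permutation cannot go below 0.1.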
